A study of Mus musculus with 7 samples.

Results

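The galectin genes measured here were Lgals1, Lgals3, Lgals4, Lgals8 and Lgals9, together with Lgals3bp, which encodes a secreted glycoprotein that galectin-3 binds. The 6 genes were taken by symbol from the probes to which the platform annotation gives 1 gene symbol, out of 18193 genes with such a probe. They had 8 probes in all, 2 each for Lgals1 and Lgals8 and 1 for each of the others. For each gene the probe of highest mean signal was used, and all 6 passed the filter on dim probes, which left out genes below a log2 value of 3.99.

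The samples were EGFP-positive cells sorted from 4 secondary and 3 tertiary mouse gliomas and measured on Affymetrix arrays. In both groups the tumour cells were of C57/Bl6 background and overexpressed PDGF-B together with EGFP, and the hosts were NOD/SCID mice, a strain without working B or T lymphocytes. Secondary gliomas grew from grafted cells of early-onset primary gliomas, and tertiary gliomas from grafted cells of a secondary glioma. Sorting used EGFP alone. The labels call the samples biological replicates without naming the donor tumour or host of each, and give no age. Samples may therefore share a donor, while the p-values treat each sample as independent. No primary tumour or normal brain was analysed here.

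Galectins are lectins that bind beta-galactoside sugars on glycoproteins and glycolipids, both outside the cell and on the inner face of damaged vesicles. Galectin-1 is a small lectin that pairs with itself, galectin-3 joins a single lectin domain to a long flexible tail and is abundant in macrophages, and galectins 4, 8 and 9 carry a pair of different lectin domains on a single chain. In brain tumours the family is known for roles in cell migration and in the restraint of immune cells.

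Promoter sequences are shown for Lgals3, Lgals3bp and Lgals9, whose tertiary values all lay below their secondary values, so that the stretch of DNA ahead of each can be seen beside its values. RefSeq promoters on build GRCm38.p6 were found for 5 of the 6 genes, all but Lgals1. Each line gives the 250 bases before the annotated start, 5′ to 3′ on the gene's strand, and capitals mark the motif matches described after them.
Lgals3, chr14:47373610-47373859, plus strand: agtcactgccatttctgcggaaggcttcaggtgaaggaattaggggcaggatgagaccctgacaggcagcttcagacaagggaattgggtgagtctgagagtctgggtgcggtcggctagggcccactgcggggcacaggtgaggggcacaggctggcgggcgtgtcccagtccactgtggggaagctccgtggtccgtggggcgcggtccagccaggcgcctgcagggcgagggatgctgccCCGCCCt
Lgals3bp, chr11:118401960-118402209, minus strand: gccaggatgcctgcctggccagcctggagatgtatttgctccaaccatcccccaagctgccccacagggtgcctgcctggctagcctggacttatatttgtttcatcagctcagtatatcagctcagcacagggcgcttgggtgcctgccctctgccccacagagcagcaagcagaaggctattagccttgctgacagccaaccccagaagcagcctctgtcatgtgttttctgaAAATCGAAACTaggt
Lgals9, chr11:78984925-78985174, minus strand: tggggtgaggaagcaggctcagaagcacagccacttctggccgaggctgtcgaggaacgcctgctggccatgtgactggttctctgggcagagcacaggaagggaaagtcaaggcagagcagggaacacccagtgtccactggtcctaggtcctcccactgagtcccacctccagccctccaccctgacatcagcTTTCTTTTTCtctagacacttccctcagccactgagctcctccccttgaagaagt

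The motifs were searched on both strands of these windows. The core of the interferon-stimulated response element, a pair of GAAA blocks with any 2 bases between them, matched the minus strand of the Lgals9 window from 55 to 46 bases before the start, and 2.98% of 32851 mouse promoter windows of this length hold it. Lgals3bp had no match to that core, but held a form of the same element, AAA and GAAACT with any 2 bases between them, from 15 to 5 bases before the start. That form was searched only after the sequence had been read and occurs in 0.551% of the windows. The Lgals3 window held the Sp/KLF motif GGGCGG on the minus strand from 7 to 2 bases before the start. That motif occurs, at any position on either strand, in 32.7% of all windows. The Lgals3 window had 13 CpG sites against 2 for Lgals3bp and 3 for Lgals9 and a median of 6 over all windows. The ETS motif GAGGAAGT, the AP-1 motif TGANTCA and the TATA motif TATAAA, held by 2.44%, 6.75% and 12.4% of windows, matched none of the 5 galectin windows. These matches describe letters in a window, and no binding was measured.

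The study's comparison sets gliomas of the second transplant against those of the first. Of the 6 genes, Lgals3 and Lgals3bp were lower in tertiary gliomas, Lgals1 was higher, and Lgals4, Lgals8 and Lgals9 did not pass an adjusted p of 0.05. The test was limma over 14453 genes with Benjamini-Hochberg adjustment, and it called 7.38% of all genes, 6.33% lower and 1.04% higher. The members were chosen with earlier results of these arrays known, so their 3 calls are a description. Log2 fold changes below are tertiary minus secondary, and a median of 0.09 over all genes tested is the level they stand against.

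**Figure D1:**
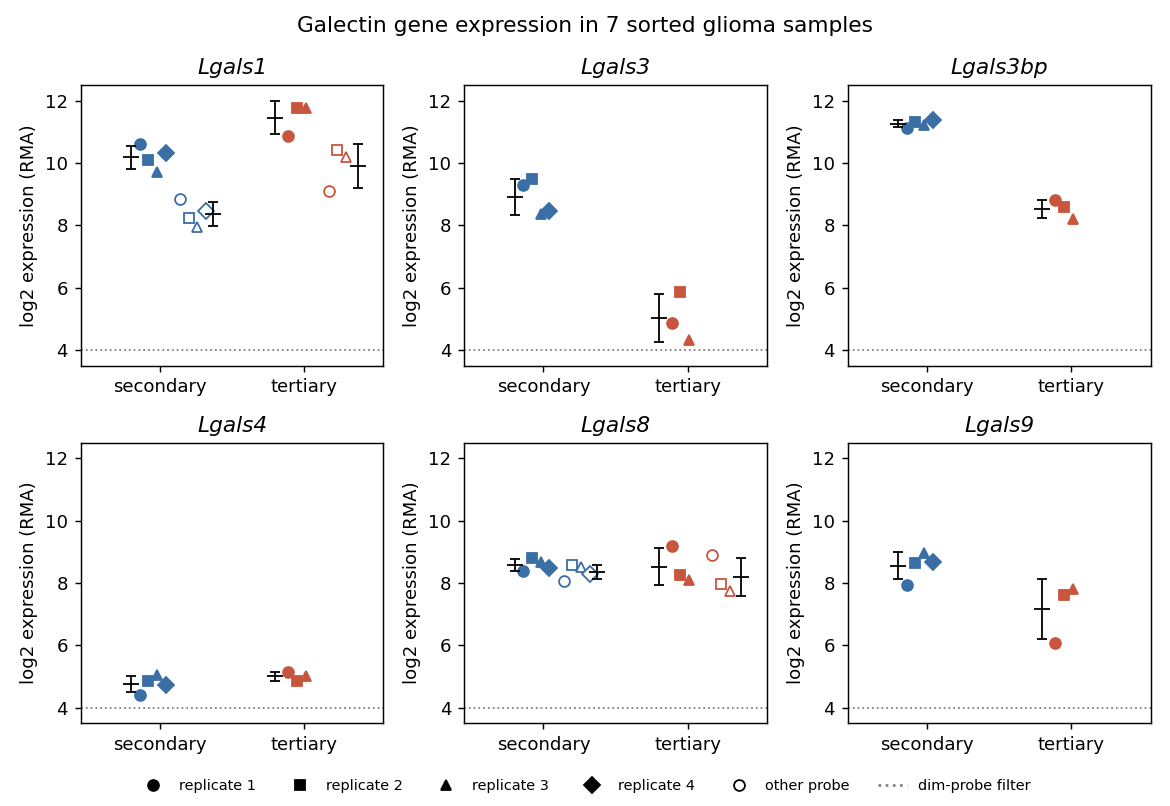
Log2 expression (RMA) of the 6 genes in the 4 secondary and 3 tertiary gliomas, with filled markers for the probe used, open markers for the other probe of Lgals1 and Lgals8, and black bars for the mean and SD of each group. Groups are apart for Lgals1, Lgals3, Lgals3bp and Lgals9, as for 21.9% of all genes tested, and overlap for Lgals4 and Lgals8. The dotted line is the dim-probe filter at 3.99.

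Lgals3 encodes galectin-3, the member of the family with a single lectin domain and a long tail. Its log2 values were 9.29, 9.49, 8.38 and 8.47 in secondary gliomas 1 to 4 and 4.88, 5.85 and 4.33 in tertiary gliomas 1 to 3. Every tertiary value lay at least 2.52 below every secondary value, and tertiary gliomas 1 and 3 lay within 1 log2 unit of the dim-probe filter. The log2 fold change was -3.89 ± 0.42 (SE, n = 4 and 3; limma adjusted p = 0.000922), a 14.8-fold lower level with a 95% interval of 7.58-fold to 28.8-fold. It ranked 125th from the lowest of the 14453 fold changes. RMA compresses differences of dim probes, which bears on the tertiary side of this value.

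Within the secondary group Lgals3 was uneven, with gliomas 1 and 2 about 1 log2 unit above gliomas 3 and 4, a range of 1.11. The tertiary range was 1.52, with tertiary glioma 2 highest. The call held without each of the 7 samples in turn, where the log2 fold change ran from -4.30 to -3.54 and the adjusted p from 0.00107 to 0.00539.

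Lgals3bp encodes a secreted scavenger-receptor glycoprotein that galectin-3 binds and that interferon is known to induce. It was at log2 values of 11.13, 11.31, 11.23 and 11.37 in secondary gliomas 1 to 4 and 8.80, 8.58 and 8.22 in tertiary gliomas 1 to 3. The groups were separated by 2.33, and the secondary values spanned only 0.24, the narrowest secondary range of the 6 genes. Its log2 fold change was -2.73 ± 0.17 (SE, n = 4 and 3; limma adjusted p = 8.65e-05), a 6.63-fold lower level with a 95% interval of 5.08-fold to 8.65-fold. In contrast to Lgals3, the tertiary level stayed far above the dim-probe filter. The call held in all 7 fits without a sample, at log2 fold changes of -2.86 to -2.57.

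Microglia and macrophage markers moved with both genes. All 19 markers tested of the list were called lower, where 6.33% of all genes tested were, and their median log2 fold change was -4.23. The list mean lay between 9.88 and 10.69 in secondary and between 5.67 and 6.53 in tertiary gliomas. The log2 of the summed level was 14.93 to 15.50 in secondary and 10.68 to 11.81 in tertiary gliomas. The markers included Fcer1g, an immunoglobulin receptor chain (log2 fold change -4.12), and the lysosomal protein Cd68 (-3.97), while Itgam and Adgre1 had tertiary means below the dim-probe filter. In these bulk samples fewer cells of a type and less RNA per cell cannot be told apart, and the part of these cells in the fall of Lgals3 and Lgals3bp was not tested. Among secondary gliomas the sample order differed: glioma 3 had the highest marker mean and the lowest secondary Lgals3 value. Among tertiary gliomas the marker mean was 6.53, 6.38 and 5.67 in gliomas 2, 1 and 3, the same order as Lgals3. The highest tertiary Lgals3bp value was in glioma 1. Tertiary glioma 3 was lowest of all 7 samples in the marker mean, in Lgals3 and in Lgals3bp.

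**Figure D2:**
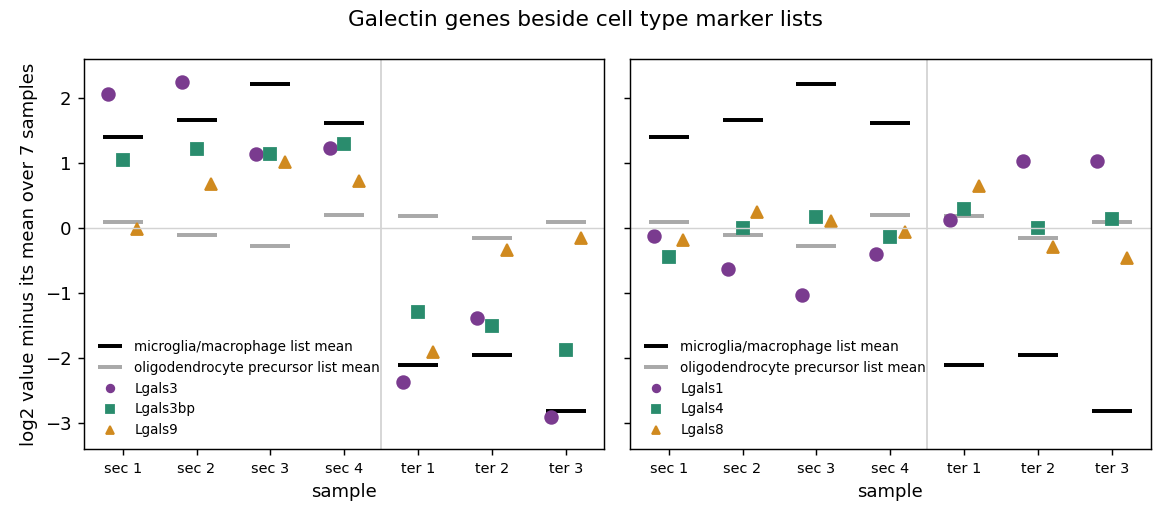
Log2 value minus its mean over the 7 samples for the 6 genes (coloured markers) and for the means of the microglia and macrophage list (black bars) and the oligodendrocyte precursor list (grey bars), by sample. Lgals3 and Lgals3bp lie above 0 in the 4 secondary and below 0 in the 3 tertiary gliomas, as the black bars do, and the grey bars lie near 0 throughout.

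Lgals1 encodes galectin-1, the self-pairing lectin known in gliomas for promoting migration. It was the only one of the 6 genes called higher in tertiary gliomas. Its log2 values were 10.60, 10.09, 9.70 and 10.33 in secondary gliomas 1 to 4 and 10.85, 11.76 and 11.75 in tertiary gliomas 1 to 3. The groups did not overlap, as in 21.9% of all genes tested, but the gap was only 0.26, between secondary glioma 1 and tertiary glioma 1. The log2 fold change was 1.28 ± 0.29 (SE, n = 4 and 3; limma adjusted p = 0.0399), a 2.42-fold higher level with a 95% interval of 1.52-fold to 3.87-fold.

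The second Lgals1 probe gave the same order of groups at lower signal, with 8.84, 8.25, 7.94 and 8.45 in secondary and 9.11, 10.42 and 10.18 in tertiary gliomas. Its difference was 1.53, against 1.28 for the first. In the fit of every probe on its own the first probe had an adjusted p of 0.0595 and the second of 0.0563, so neither was called there. The call was also lost without secondary glioma 2, 3 or 4 (adjusted p = 0.0988, 0.0865 and 0.0812) and without tertiary glioma 2 or 3 (0.147 and 0.142). It held without secondary glioma 1 (0.0401) and without tertiary glioma 1 (0.0111), where the log2 fold change was 1.58. The direction was the same in each of these fits.

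Lgals9 encodes galectin-9, a ligand of the inhibitory receptor Tim-3. Secondary and tertiary values were apart, with log2 values of 7.95, 8.63, 8.97 and 8.68 in secondary gliomas 1 to 4 and 6.06, 7.63 and 7.81 in tertiary gliomas 1 to 3. All tertiary values were below all secondary ones, by at least 0.14, which 21.9% of all genes tested also showed in one direction or the other. The log2 fold change was -1.39 ± 0.44 (SE, n = 4 and 3) with a limma adjusted p of 0.110, so it was not called; its 95% interval ran from -2.41 to -0.38. An exact two-sided permutation test over the samples gave an unadjusted p of 0.0571, where 0.0286 is the smallest possible. Tertiary glioma 1 carried much of the difference, which was -0.84 without it (adjusted p = 0.0985).

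Lgals8 encodes galectin-8, which marks damaged endosomes and lysosomes for autophagy. Its log2 values were 8.37, 8.80, 8.66 and 8.49 in secondary gliomas and 9.20, 8.26 and 8.10 in tertiary gliomas, so that tertiary gliomas held both the highest and the lowest of the 7 values. The log2 fold change was -0.06 ± 0.27 (SE, n = 4 and 3; limma adjusted p = 0.914), with a 95% interval from -0.69 to 0.56. The second probe showed the same pattern, with tertiary glioma 1 highest at 8.88 and tertiary glioma 3 lowest at 7.74, and a difference of -0.16. Without tertiary glioma 1 the log2 fold change was -0.40 (adjusted p = 0.159), and without tertiary glioma 3 it was 0.15 (adjusted p = 0.822).

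Lgals4 encodes galectin-4, known chiefly from the epithelium of the gut. It had log2 values of 4.42, 4.86, 5.04 and 4.72 in secondary gliomas and 5.16, 4.86 and 5.01 in tertiary gliomas. All were close to the dim-probe filter and the groups overlapped. The log2 fold change of 0.25 ± 0.18 (SE, n = 4 and 3; limma adjusted p = 0.429) had a 95% interval from -0.16 to 0.65. It was 0.13 without secondary glioma 1 (adjusted p = 0.651).

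**Figure D3:**
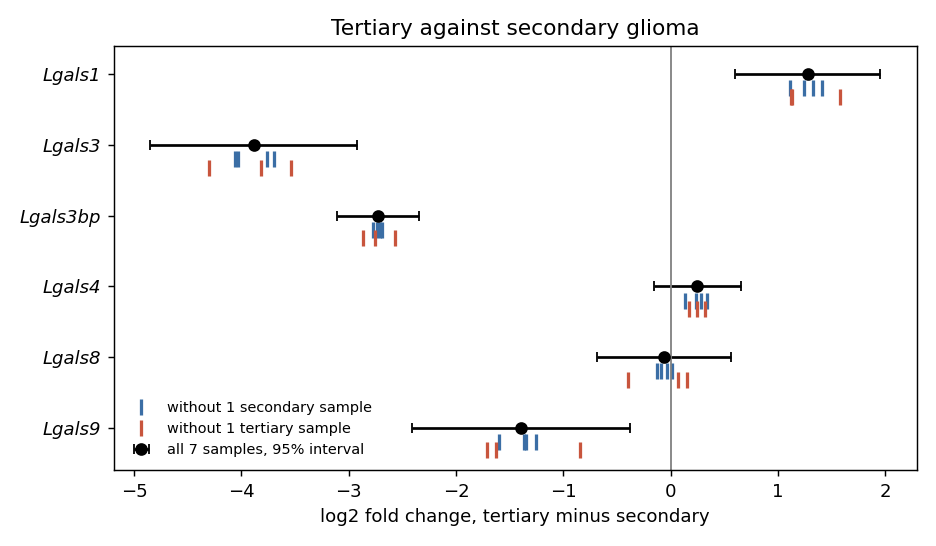
Log2 fold change of each gene, tertiary minus secondary, with its 95% interval from limma (black), and the same without each secondary (blue) or tertiary (red) sample. The intervals of Lgals3 and Lgals3bp lie furthest below 0, that of Lgals1 lies above 0, that of Lgals9 lies below 0 although its adjusted p was 0.110, and those of Lgals4 and Lgals8 include 0.

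Tertiary glioma 1 stood apart from the other tertiary samples in 3 of the genes. It had the lowest tertiary Lgals1 value by 0.90, the highest tertiary Lgals8 value by 0.93 and the lowest Lgals9 value by 1.56. Its nearest tertiary neighbour was 0.55 away in Lgals3, 0.22 in Lgals3bp and 0.15 in Lgals4. The direction of Lgals1, Lgals3, Lgals3bp and Lgals9 was the same without it. The array weight of tertiary glioma 1, estimated over all genes tested, was 0.38, the lowest of the 7 samples. Those of the other samples ran from 0.47 to 2.16.

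Other galectin genes were examined next. Of 5 with a probe, Lgals2, Lgalsl, Grifin and Lgals7 were tested and limma called none, with 0 at an unadjusted p under 0.05, which 23.8% of all genes tested had, and a median log2 fold change of 0.28. Lgals2, a galectin of the gut, had a log2 fold change of 0.65 ± 0.32 (SE, adjusted p = 0.263), or 0.30 without tertiary glioma 1, which held its highest value of 7.39. Lgalsl, a galectin-like gene, had one of 0.60 ± 0.31 (adjusted p = 0.284), or 0.33 without secondary glioma 3. Lgals12 lay below the dim-probe filter.

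Proteins that galectins bind were the next list. Of 28 tested, 10 were lower and 1 was higher, at a median log2 fold change of -0.36, where 6.33% of all genes were called lower and 1.04% higher. Ptprc, the leukocyte phosphatase CD45 to which galectin-1 binds, had log2 values of 9.94, 10.19, 10.60 and 10.20 in secondary and 4.55, 5.65 and 4.38 in tertiary gliomas (log2 fold change -5.37, adjusted p = 8.13e-05). Havcr2, which encodes the galectin-9 receptor Tim-3, had 8.10, 8.79, 9.33 and 8.61 in secondary and 4.35, 4.76 and 4.09 in tertiary gliomas (-4.31 ± 0.29 SE, adjusted p = 0.000113). The values of Ptprc and Havcr2 did not overlap between the groups, as for Lgals3 and for 21.9% of all genes tested.

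The lipid receptor Trem2 fell by 4.00 on the log2 scale, or by 2.01 with all its probes averaged, and neuropilin, Nrp1, a receptor for semaphorins and growth factors, changed by -3.86 ± 0.26 (adjusted p = 0.000109). Of the 10 lower partners, 3 are also on the microglia and macrophage list. Among the 23 partners on no marker list 7 were lower and 1 was higher, at a median of -0.12, where 6.33% of all genes were called lower and 1.04% higher. The marker lists are short, so a partner on none of them may still be expressed in microglia and macrophages. This split therefore does not separate cell types. Across these samples the microglia and macrophage list fell at a median of -4.23, and its part in the partner genes was not tested.

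Cd44, the hyaluronan receptor that is also a galectin partner, was the single partner called higher and is named after its value was seen. Its log2 values were 5.82, 6.11, 5.64 and 5.67 in secondary and 6.63, 8.05 and 7.21 in tertiary gliomas. These did not overlap, as in 21.9% of all genes tested. Cd44 rose by 1.49 ± 0.31 on the log2 scale (SE, limma adjusted p = 0.0290). Like that of Lgals1, this call was lost without single samples: without secondary glioma 1, 2, 3 or 4 (adjusted p = 0.0655, 0.0537, 0.0811 and 0.0801) or tertiary glioma 3 (0.0887). It was also lost with all probes of a gene averaged (log2 fold change 1.08, adjusted p = 0.0619) and with the replicate number as a block (adjusted p = 0.0634).

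Enzymes that build or trim the sugar chains galectins read were tested as a list of 26 genes, of which 4 were lower and none higher, at a median log2 fold change of -0.41. At an unadjusted limma p under 0.05 there were 12 lower and 1 higher of the 26, where 23.8% of all genes tested had such a p in one direction or the other. Gcnt1, which starts the branched O-glycans that galectin-1 reads, had log2 values of 8.23, 8.54, 9.49 and 8.54 in secondary and 4.08, 4.88 and 3.28 in tertiary gliomas (log2 fold change -4.62 ± 0.42 SE, adjusted p = 0.000375). B4galt1, which adds galactose to N-acetylglucosamine, had 7.95, 8.14, 8.63 and 7.83 in secondary and 4.49, 5.66 and 4.87 in tertiary gliomas (-3.13 ± 0.31 SE, adjusted p = 0.000585). Both genes were lower in every tertiary than in every secondary sample, where 21.9% of all genes tested did not overlap in one direction or the other. Gcnt2, which branches poly-N-acetyllactosamine chains, changed by -1.38 ± 0.22 (adjusted p = 0.00854), but by -0.52 with all its probes averaged (adjusted p = 0.0553). The lysosomal galactosidase Glb1 changed by -1.18 ± 0.21 (adjusted p = 0.0147), with its call lost without tertiary glioma 3 (adjusted p = 0.0666) and with the replicate number as a block (0.0535). The microglia and macrophage list fell in the same comparison, and its part in these enzymes was not tested.

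Genes of the response to damaged endosomes and lysosomes, to which galectins 3 and 8 are recruited, were called in 1 of 17 cases, where 7.38% of all genes were called, and had a median log2 fold change of 0.045. The gene called was Tfeb, the transcription factor of lysosome genes, at -0.92 ± 0.21 (SE, adjusted p = 0.0399). Its call was lost without secondary glioma 2, 3 or 4 (adjusted p = 0.0962, 0.0698 and 0.0882) and without tertiary glioma 2 or 3 (0.145 and 0.128), with quantile normalization (0.0503) and with the replicate number as a block (0.155).

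**Figure D4:**
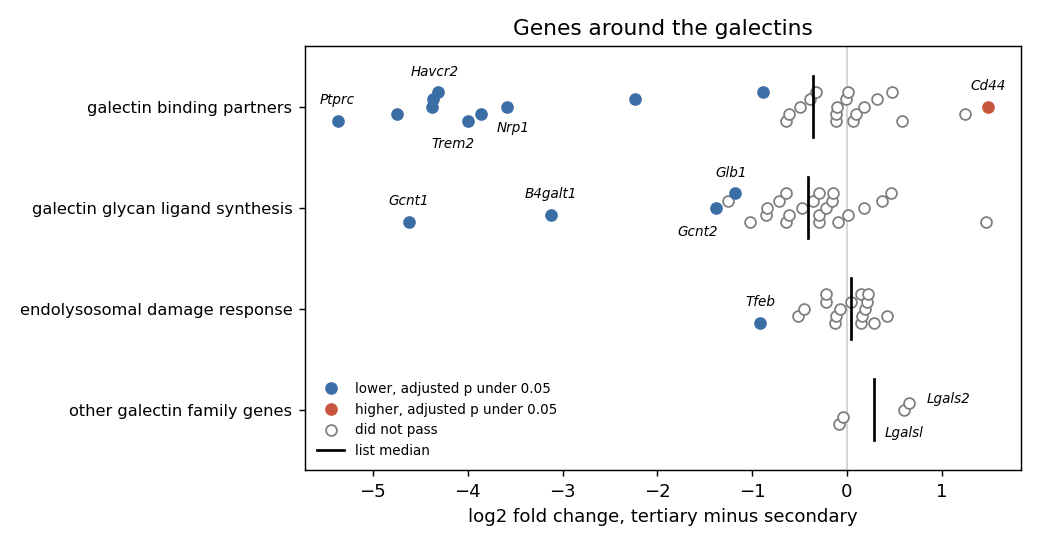
Log2 fold change (tertiary minus secondary) of each tested gene of the 4 lists around the galectins, coloured where the limma adjusted p was under 0.05, with a black bar at each list's median and the named genes labelled. The binding partners spread furthest to the left, with Cd44 alone called to the right, and the endolysosomal damage list lies around 0.

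Markers of other cell types give the setting of these values. Of 8 markers of oligodendrocyte precursors, the cell type that PDGF-driven gliomas resemble, limma called none, with 0 at an unadjusted p under 0.05 (median 0.06; Sox10 at 0.30 and Gpr17 at -0.34), and the list mean was 10.09 to 10.56 in secondary and 10.21 to 10.55 in tertiary gliomas. Of 5 oligodendrocyte markers 2 were lower, the myelin genes Mog (-2.42) and Mag (-2.42), where 6.33% of all genes tested were called lower. All 5 were lower at an unadjusted p under 0.05, at a median of -2.06. The count of 2 was 4 without tertiary glioma 1, with all probes averaged and with array weights, and 1 with the filter at the 50th percentile. Against the same 6.33%, 3 of 4 granulocyte and monocyte markers tested were lower, Csf3r (-4.38), S100a9 (-3.45) and S100a8 (-3.42). Of 6 mural and fibroblast markers 1 was lower, Anpep (-1.88, limma adjusted p = 0.0177). The Anpep call was lost without secondary glioma 4 (adjusted p = 0.0539), tertiary glioma 2 (0.0731) or tertiary glioma 3 (0.0708) and with the replicate number as a block (0.0725). The 3 lymphocyte and natural killer, 7 endothelial, 8 astrocyte and 6 neuron markers tested held no limma call, with 0, 4, 2 and 1 at an unadjusted p under 0.05, which 23.8% of all genes tested had. The 2 with the lowest p of each were Cd79b (-0.34) and Prf1 (0.12), Cdh5 (-0.48) and Vwf (0.64), Aldh1l1 (-0.60) and Aqp4 (-1.68), and Tubb3 (1.81) and Gad1 (0.42). Under the alternative fits the astrocyte list held 0 to 2 lower calls, and the endothelial list 0 to 1 lower and 0 to 1 higher. The lymphocyte and neuron lists held no call in any of those fits.

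The 3 genes whose pattern was most like each galectin were taken by Pearson's r over the 7 arrays, which share both groups and their normalization. Lgals3 was closest to Crip1, a LIM-domain protein (r = 0.994), the methionine sulfoxide reductase Msrb1 (0.992) and the macrophage scavenger receptor Msr1 (0.990). Lgals3bp was closest to the beta-glucan receptor Clec7a (0.997), the macrophage perforin-like gene Mpeg1 (0.997) and the lysosomal protease cathepsin D, Ctsd (0.997). All 6 of these genes were called lower in tertiary gliomas, at log2 fold changes from -5.01 for Clec7a to -1.14 for Msrb1, against 6.33% of all genes tested. They were picked by r across both groups with genes that fell, so their direction follows from the choice and is no separate result. Lgals1 was closest to Ckap4, a membrane protein of the endoplasmic reticulum (0.996), Faf1 (0.994) and the sterol enzyme Hsd17b7 (0.992), none of which was called. For Lgals9 they were Dock11, Plekha1 and Bicra (0.989 to 0.980), for Lgals8 Wdr41, Itpkb and Sema6b (0.977 to 0.973) and for Lgals4 Cox10, Cbx8 and Ccno (0.979 to 0.964), none of them called.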

How the data were processed

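Sorted cells of 4 secondary and 3 tertiary gliomas were measured on Affymetrix arrays from 30 ng of amplified RNA, per the labels' protocols. The deposited table holds log2 expression values, made by the authors with RMA, as the submitters' processing notes give it. The sources used here give neither its version nor the build behind the array. The size of the values gave the log base. Array medians lay between 5.57 and 5.64, and no pair of arrays shared more than 5.39% of its values. Precision is limited by the number of arrays. No batch was tested, since neither scan dates nor detection calls were used here.

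Of 45101 probes, 34945 had 1 symbol in the platform annotation, 932 had several, 9160 had none listed and 64 were controls. Genes whose probe mean lay below the 25th percentile were left out. Groups were compared with limma 3.58.1 in R 4.3.3 (lmFit and eBayes, no covariate), adjusted over all genes tested, after a test of the steps on simulated data. In the simulated data 48% of 100 genes changed by 1 log2 unit were called, and 84% of 100 genes changed by 2, with 9 false calls. A gene that was not called may therefore still differ. Promoter windows and motifs were read with pandas 2.3.3 in Python 3.11.15, and figures were drawn with matplotlib 3.10.9. The members and lists were chosen with earlier results of these data known. The text names all 6 members, up to 4 called genes of each list by lowest p (or the 2 of lowest p where none was called) and the 3 genes most like each member; exceptions are said. The labels do not say whether replicate numbers pair the samples. Deviations from the group means correlated at 0.04, -0.14 and 0.01 for numbers 1 to 3, and at -0.24 to 0.27 for unlike numbers. Such correlations cannot show whether samples share a donor. Alternatives changed the probe choice, the dim filter, the scaling, the variance model, the array weights and the samples, and added a replicate block, an exact permutation test and a fit of every probe.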

Additional observations from a re-analysis of the deposited data

How the results depend on the processing

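The calls of Lgals3 and Lgals3bp held under every alternative limma fit, from -4.30 to -3.54 and from -2.90 to -2.57 on the log2 scale. The count of 2 members called lower held as well. The exact permutation test gave Lgals1, Lgals3 and Lgals3bp its smallest possible p of 0.0286. That p is unadjusted, so it cannot show whether a call holds. Lgals4 and Lgals9 stayed uncalled throughout, and Lgals4 was left out by the filter at the 50th percentile. Lgals1 kept its direction in all 19 alternatives, the permutation test among them, but lost its call in 9. These were no dim filter (log2 fold change 1.28, adjusted p = 0.0530), the replicate block (1.32, adjusted p = 0.160), both probes in the fit of every probe (1.28 and 1.53) and 5 of the 7 fits without a sample, which ranged from 1.12 to 1.58. The count of members called higher was then 0 without the dim filter and with the replicate block, and 0 to 1 without a sample. Lgals8 changed sign in 3 fits without a sample, which ranged from -0.40 to 0.15, and Gad1, which ranged from -0.023 without tertiary glioma 1 to 0.73 without tertiary glioma 2. Over the whole array 915 genes were lower and 151 higher. The replicate block, whose numbers the labels do not give as pairs, gave 575 and 61, and array weights gave 668 higher. Leaving out a sample gave 610 to 1076 lower and 27 to 781 higher. The 27 came without tertiary glioma 2 and the 781 without tertiary glioma 1. Partners called higher numbered 0 with all probes averaged, 2 with array weights and 0 to 1 without a sample, and glycan enzymes called higher 0 to 1 without a sample. Damage response genes called lower numbered 0 with quantile normalization and with the replicate block, and 0 to 1 without a sample. Of the 3 genes most like each member, ranking by deviations from the group means kept 1 for Lgals8 and 0 for Lgals1, Lgals3, Lgals3bp, Lgals4 and Lgals9. The causes of these changes were not tested. Fits without a sample hold fewer samples, and the fit without the dim filter holds more genes. Signal over background limits Lgals4 and the values of Lgals3 in tertiary gliomas 1 and 3, which lie near the filter.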

Other observations

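Some glycan and lysosome genes tied to galectins missed the threshold while their groups did not overlap, and are named after their values were seen. Mgat5, which makes the branched N-glycans that galectin-3 cross-links, had log2 values of 7.75, 7.63, 8.07 and 7.55 in secondary and 6.34, 7.32 and 6.51 in tertiary gliomas (log2 fold change -1.03 ± 0.26 SE, limma adjusted p = 0.0545). Lamp1, a lysosomal membrane glycoprotein that galectins bind, had 11.45, 11.61, 11.79 and 11.55 in secondary and 11.19, 10.69 and 10.97 in tertiary gliomas (-0.65 ± 0.16 SE, adjusted p = 0.0522). Values that do not overlap between the groups were found in 21.9% of all genes tested.

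Lgals12, a galectin of fat cells, had a mean log2 value of 3.78 on its brighter probe, below the dim-probe filter. Its values were 3.65, 3.62, 4.15 and 3.54 in secondary gliomas and 3.82 in each of the 3 tertiary gliomas.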
